A study of Mus musculus with 15 samples.

Results

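A group of 61 genes had their highest level in mouse embryonic fibroblasts (MEFs) on the last day of adipogenic treatment, and Prg4, the gene of the joint lubricant lubricin (proteoglycan 4), was among them. The genes were chosen by their level in CPM (the count of a gene divided by all gene counts of that sample, times 1000000). A gene was a member when its mean CPM over the 3 samples of treated day 3 cells was at least 5 and at least 4 times the mean in each of the other 4 groups. These 61 genes were found among 46603 Ensembl genes, of which 29186 had at least 1 count and 10251 had a mean of 5 CPM or more in treated day 3 cells. The same rule turned to the other groups gave 44 genes for treated day 5 cells, 13 for day 0, 12 for untreated day 5 and 6 for untreated day 3.

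The cells were MEFs of wild-type BALB/c embryos at 10.5 days, a mixed primary culture kept in DMEM with 10% FBS, and mRNA libraries made from total RNA were sequenced for 3 samples per group, numbered 1, 3 and 4. MEFD0 cells were taken before treatment. MEFD3plu cells had spent 3 days in growth medium to which 4 agents were added: rosiglitazone (10 μM), dexamethasone (1 μM), insulin (10 μg/mL) and IBMX (3-isobutyl-1-methylxanthine, 0.5 mM). MEFD3min cells spent the same 3 days in growth medium alone. MEFD5plu cells had the same treatment and then 2 days without these agents, so MEFD5plu describes cells after withdrawal and not cells in the medium, and MEFD5min cells were untreated throughout. Since all 4 agents were given together, their parts cannot be told apart. The labels do not say whether the 3 samples of a group came from separate embryos or cultures, so the p-values measure only the spread between these samples, which may be technical.

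Each agent of the medium has a known target. Dexamethasone binds the glucocorticoid receptor, a transcription factor that raises genes such as Fkbp5 within hours. IBMX blocks phosphodiesterases and so keeps cyclic AMP high, insulin acts through its receptor, and rosiglitazone activates PPARγ, the receptor that drives the genes of fat storage.

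Each sample held between 24030558 and 37281126 counts in all. The 9 adipocyte markers checked (among them Adipoq, Fabp4 and Plin1) summed to between 9683 and 11547 CPM in MEFD3plu and between 10693 and 12318 CPM in MEFD5plu, against 44.7 to 82.6 CPM in the untreated samples. The 12 fibroblast markers summed to between 13400.0 and 14865 CPM in MEFD3plu, against 25801 to 37158 CPM in MEFD3min and 11689 to 17510 CPM in the other groups. Of these markers, 9 were called lower and 1 higher in MEFD3plu/MEFD3min (28.0% of all genes tested in each direction), and their part in the results was not tested. These are bulk samples, in which fewer cells of a type and less RNA per cell cannot be told apart.

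The levels of the 61 members in MEFD3plu spanned from 5.02 CPM (Liph) to 1640.5 CPM (Ctla2a), with a median of 21.03 CPM. By annotation 58 were protein-coding, 1 was a lincRNA, 1 a processed transcript, and 1 had no annotation. Together they held 5616, 5689 and 5658 CPM in the 3 MEFD3plu samples. They held between 1015 and 1101 CPM in MEFD5plu, and between 237 and 406 CPM across MEFD0, MEFD3min and MEFD5min. The 3 MEFD3plu samples lay close together, with a coefficient of variation per gene between 1.43% and 25.3% and a median of 10.1%. In all 61 every MEFD3plu sample lay above every other sample, which the choice of members largely sets. For 49 members the next highest group was MEFD5plu, for 7 it was MEFD3min, for 3 MEFD0 and for 2 (Prg4 and Jag1) MEFD5min.

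**Figure D1:**
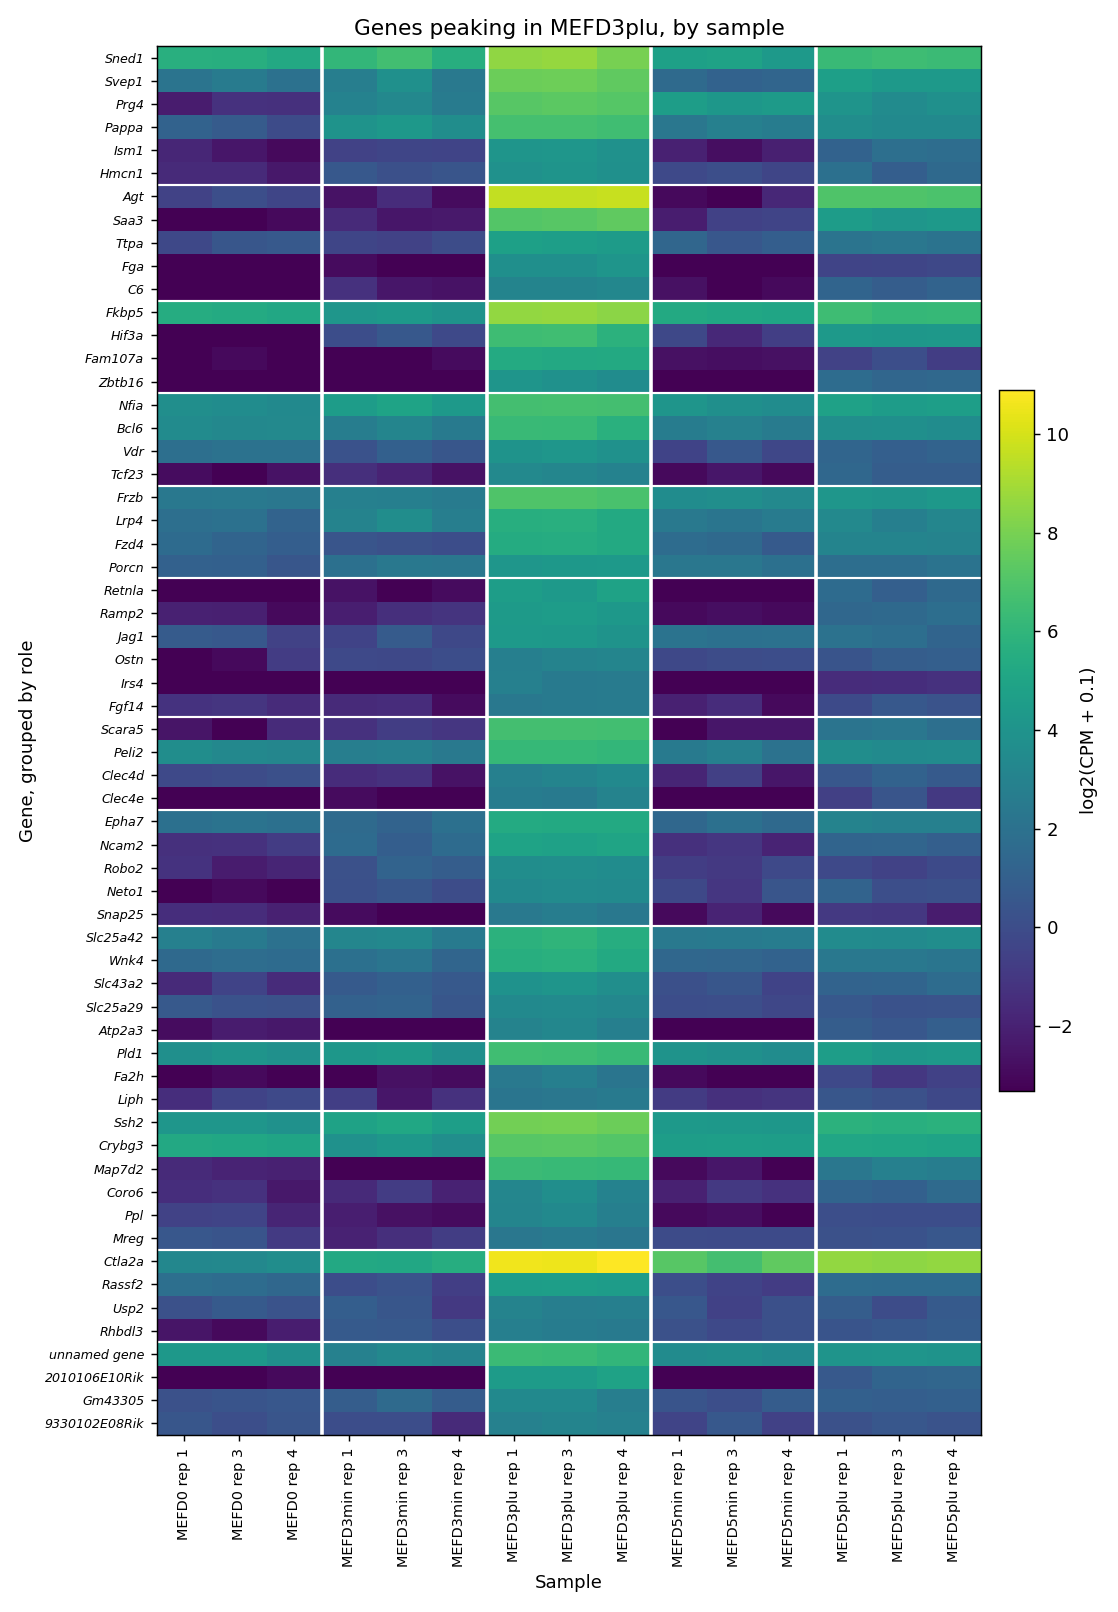
Level of 60 of the 61 members in each of the 15 samples, as log2(CPM + 0.1) in colour, with genes in rows grouped by known role (white lines part the groups) and samples in columns. The MEFD3plu columns are the brightest in every row because members were chosen for this, and in most rows MEFD5plu is the next brightest.

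The threshold of 4 times was passed narrowly by Nfia (4.02 times the next highest group) and Pld1 (4.07), and missed narrowly by Slc37a2 (3.97), Htra3 (3.95) and Mfsd6 (3.94). On the level, Liph (5.02 CPM) and Mreg (5.03 CPM) were just inside, and Pip (4.96 CPM) and Prr16 (4.65 CPM) just outside. The ratio of the MEFD3plu mean to the next highest group ran from 4.01 to 58.2 with a median of 5.37. The values of MEFD3plu against the other groups chose the members and were therefore not tested.

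Prg4 encodes a large mucin-like glycoprotein that coats cartilage and tendon surfaces. Its gene lies on chr1:150449412-150466165 (GRCm38, minus strand), and 4.77% of its exon bases lie antisense to Tpr, whose reads could not be separated without the strand setting of the counting. Prg4 stood at 147, 162 and 139.7 CPM in MEFD3plu, and at 0.111, 0.307 and 0.295 CPM in MEFD0. Untreated cells gained it in culture too, with 7.86, 9.82 and 6.05 CPM in MEFD3min and 24.2, 18.02 and 21.3 CPM in MEFD5min. After withdrawal, MEFD5plu held 16.3, 11.3 and 13.8 CPM. By CPM the groups did not overlap, and at day 5 every treated sample lay below every untreated one. The test described below scales libraries by TMM. Under that scaling (factors 0.948 and 1.07) MEFD5plu replicate 1 would lie above MEFD5min replicate 3.

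The changes of Prg4 outside the chosen peak were tested with edgeR's quasi-likelihood test, with p-values adjusted over all 15997 genes tested. MEFD3min was above MEFD0 by 5.10 on the log2 scale (SE 0.277, adjusted p = 6.69e-11) and MEFD5min above MEFD3min by 1.32 (SE 0.161, adjusted p = 4.38e-06). MEFD5plu was above MEFD0 by 5.96 (SE 0.265, adjusted p = 4.84e-12). Against MEFD5min it was lower, with a log2 fold change of -0.46 (SE 0.155, adjusted p = 0.0201). That day 5 call rested on few samples: it was lost without MEFD5min replicate 1 (-0.35, adjusted p = 0.105), without MEFD5plu replicate 3 (-0.34, adjusted p = 0.110) and without MEFD5plu replicate 4 (-0.46, adjusted p = 0.0521). The level left in MEFD5plu was 9.24% ± 1.05 (SE, n = 3 and 3) of that in MEFD3plu.

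**Figure D2:**
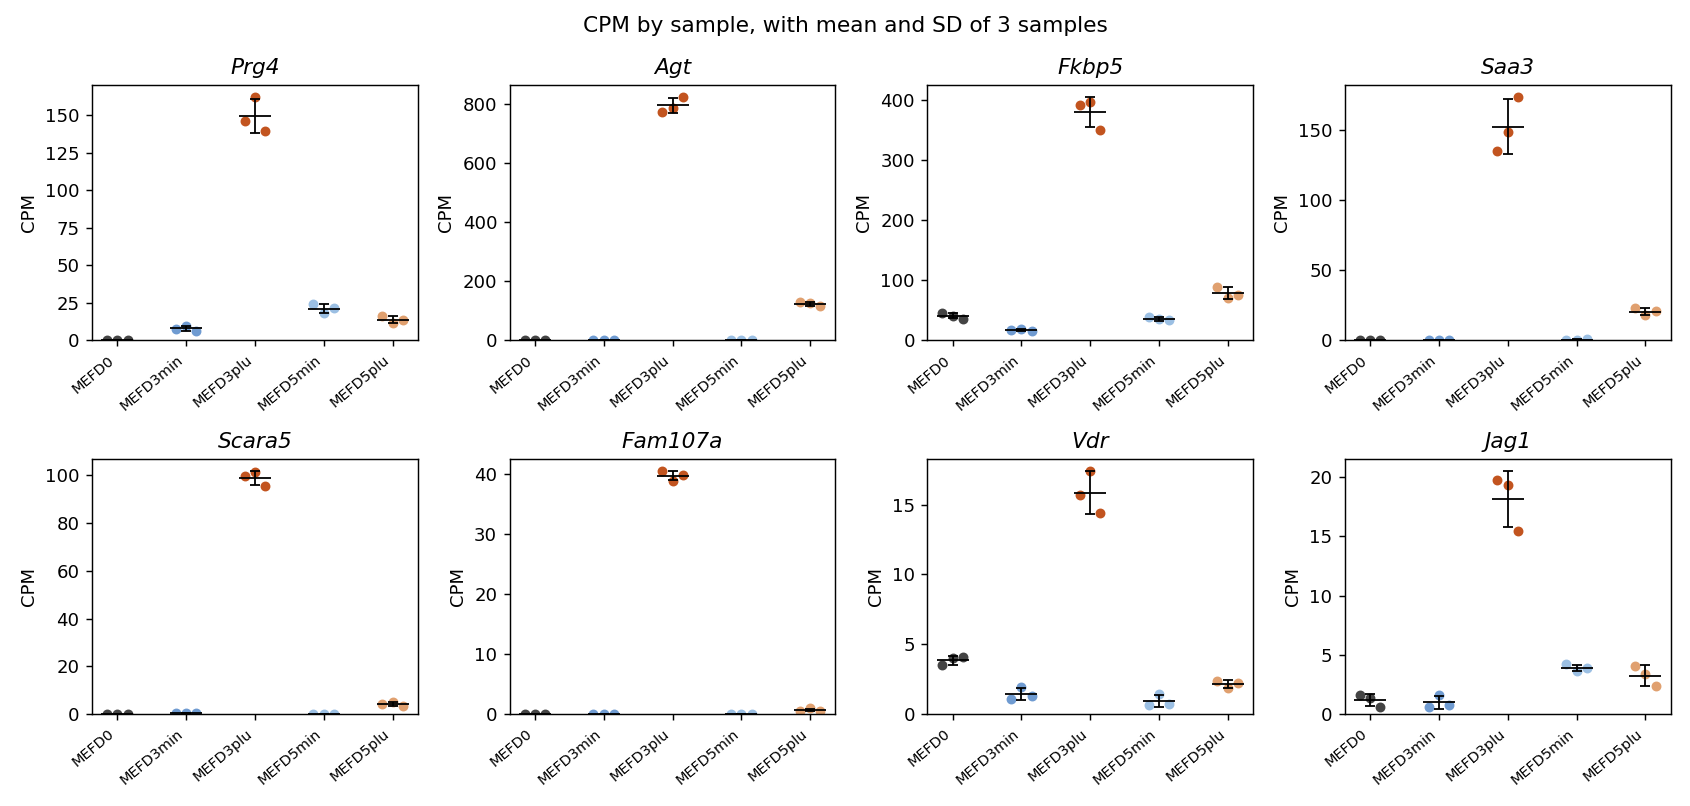
CPM of Prg4, Agt, Fkbp5, Saa3, Scara5, Fam107a, Vdr and Jag1 in the 5 groups, with 1 point per sample and a bar for the mean with its SD (n = 3); each panel has its own linear axis from 0. All 8 peak in MEFD3plu, and at day 5 the treated samples lie below the untreated ones for Prg4, above them for Agt, Fkbp5, Saa3, Scara5, Fam107a and Vdr, and overlap with them for Jag1.

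Of 20 tested genes of lubricating and hyaluronan-rich matrix, Prg4 alone passed the rule for the peak. Among the other 19, 3 were called higher and 8 lower in MEFD3plu/MEFD3min (28.0% of all genes tested were called in each direction). In MEFD5plu/MEFD5min 5 were higher and 5 lower, near the shares of all genes tested (26.3% higher and 24.2% lower). Vcan, the large hyaluronan-binding proteoglycan versican, was higher at day 3 by 1.42 (SE 0.102, adjusted p = 2.68e-09), and Lum, the small proteoglycan lumican, was lower by 4.11 (log2 fold change -4.11, SE 0.288, adjusted p = 1.98e-09). The 3 called higher at day 3 (Vcan, Comp and Has2) also had their highest mean in MEFD3plu. They stood at 2.18, 2.48 and 1.03 times the next highest group, Comp at only 0.638 CPM. The count of 3 became 5 without MEFD3min replicate 4. The count of 5 lower at day 5 became 3 without MEFD5min replicate 1, 2 without MEFD5plu replicate 3 and 3 without MEFD5plu replicate 4.

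The other secreted matrix members were Sned1 and Svep1, large extracellular matrix proteins, Pappa, a metalloprotease that cleaves insulin-like growth factor binding proteins, Ism1, a secreted protein, and Hmcn1, the matrix protein hemicentin. Svep1 stood at 212, 219 and 172 CPM in MEFD3plu, at 25.6, 19.7 and 20.8 CPM in MEFD5plu and at 2.91, 2.12 and 2.42 CPM in MEFD5min. Sned1 reached 376, 403 and 257 CPM in MEFD3plu and was at 78.2, 87.9 and 83.4 CPM in MEFD5plu against 26.8, 29.7 and 20.5 CPM in MEFD5min. For both, the day 5 groups did not overlap, and MEFD5plu was higher by 3.29 for Svep1 (SE 0.279, adjusted p = 5.65e-08) and by 1.87 for Sned1 (SE 0.203, adjusted p = 1.05e-06). For Sned1 19.5% of the exon bases lie antisense to Mterf4, and for Svep1 13.9% lie antisense to Gm26889. All 6 matrix members, Prg4 included, were called higher in MEFD3min than in MEFD0, as were 31.4% of all genes tested. For Sned1 and Svep1 the samples of MEFD3min and MEFD0 overlapped by CPM. Of the 6, 5 were called higher in MEFD5plu than in MEFD5min (26.3% of all genes tested), Prg4 being the exception. Hmcn1 is also the nearest member to Prg4 on the chromosome, 96358 bases away on the same strand with 1 expressed gene between them. In all, 6 pairs of members lay within 1000000 bases of each other, the closest being Ramp2 and Wnk4, 1020 bases apart, and Ssh2 and Coro6, 2190 bases apart.

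Genes for proteins of blood plasma and the acute phase were grouped with Ttpa, 5 members in all. Their levels ranged widely, with Agt and Saa3 highest and C6 lowest. Agt encodes angiotensinogen, the precursor of the angiotensins, which liver and fat tissue secrete. Agt stood at 773, 786 and 822 CPM in MEFD3plu. It was at 0.589, 0.976 and 0.679 CPM in MEFD0, at 0.0628, 0.250 and 0.0314 CPM in MEFD3min, and at 0.0291, 0 and 0.195 CPM in MEFD5min. MEFD5plu kept 128, 126 and 116 CPM, 15.6% ± 0.553 (SE) of the MEFD3plu level. No sample of the treated groups came near an untreated one, and MEFD5plu was above MEFD5min by 10.61 (SE 0.293, adjusted p = 2.39e-14), a value that rests on few counts in MEFD5min.

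Saa3, an acute phase serum amyloid A protein that fat cells and macrophages make, had its highest and next highest levels in the same groups as Agt, at a lower level. It was at 135, 148 and 173 CPM in MEFD3plu and at 22.9, 17.8 and 20.6 CPM in MEFD5plu, but at 0.116, 0.583 and 0.667 CPM in MEFD5min. The day 5 groups did not overlap, and MEFD5plu was higher by 5.67 (SE 0.269, adjusted p = 2.92e-11). Fga, the fibrinogen alpha chain, reached 13.5, 13.5 and 17.0 CPM and had no count in MEFD0 or MEFD5min. In MEFD5plu it was at 0.649, 0.684 and 0.758 CPM, or 4.75% ± 0.434 (SE), still at least 7.08-fold higher than the floor of MEFD5min (3 counts per library). C6, a component of the terminal complement complex, and Ttpa, the transfer protein of vitamin E, peaked at 8.79 and 24.9 CPM and kept 23.6% and 17.9%. All 5 were called higher in MEFD5plu than in MEFD5min and than in MEFD0 (26.3% and 35.2% of all genes tested).

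Windows of the promoters of 3 of these genes are shown because they hold the letters of a C/EBP motif, known from liver and fat cell promoters, or of a TATA box. The sequences are from RefSeq (GRCm38.p6), which gave a promoter of 250 bases before to 50 bases after the start for 44 of the 61 members. Capitals mark the C/EBP motif TTGCNNCAA, searched on both strands, and the TATA box TATAAA, searched on the gene's strand from -40 to -20.
Agt: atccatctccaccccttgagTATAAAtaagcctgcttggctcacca
C6: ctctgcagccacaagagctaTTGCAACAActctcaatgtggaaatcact
Fga: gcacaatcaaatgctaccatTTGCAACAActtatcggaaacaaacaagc

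The Agt window is chr8:124569711-124569756 (minus strand) with the motif from -30. The C6 window is chr15:4727004-4727052 (plus strand) with the motif from -186, and the Fga window is chr3:83025960-83026008 (plus strand) with the motif from -173. The C/EBP letters were found in 2.38% of all 27025 genes with a promoter, a gene with several starts being counted once, and the TATA letters in 2.41%. Among the 44 member promoters, C6 and Fga held the first, and Agt, Clec4e, Gm43305 and Retnla the second. A match describes letters and is not evidence of binding, and with fewer than 80% of members matched no share over the set was compared.

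The 4 members of the glucocorticoid response list were Fkbp5, an immunophilin that binds the receptor's chaperone complex and dampens its signalling, the transcription factors Zbtb16 and Hif3a, and Fam107a, an actin-associated protein raised by stress. Fkbp5 stood at 392, 397 and 350.1 CPM in MEFD3plu. It was at 44.7, 40.6 and 36.3 CPM in MEFD0, at 17.5, 19.6 and 15.6 CPM in MEFD3min and at 39.4, 35.5 and 33.2 CPM in MEFD5min. MEFD5plu kept 89.0, 70.3 and 75.1 CPM, clear of every untreated sample and 1.28 above MEFD5min (SE 0.1003, adjusted p = 2.14e-08).

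Zbtb16 had no count in any of the 9 untreated samples. It reached 17.2, 14.6 and 12.2 CPM in MEFD3plu and kept 3.16, 2.50 and 2.72 CPM in MEFD5plu, 19.1% ± 2.30 (SE) of the peak and at least 28.4-fold higher than the floor of MEFD5min. Hif3a, likewise without a count in MEFD0, was at 91.1, 92.5 and 57.3 CPM in MEFD3plu and at 20.8, 18.1 and 18.9 CPM in MEFD5plu against 0.756, 0.208 and 0.528 CPM in MEFD5min. The day 5 groups of Hif3a did not overlap, with a difference of 5.34 (SE 0.272, adjusted p = 5.47e-10).

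Fam107a had the sharpest peak of all members. It was at 40.5, 38.9 and 39.9 CPM in MEFD3plu, at most 0.0582 CPM in any untreated sample, and at 0.593, 0.952 and 0.506 CPM in MEFD5plu. Its level left was 1.72% ± 0.344 (SE), the lowest of the 61, and still at least 6.94-fold higher than the floor of MEFD5min. Its promoter is shown because it was the only one of the 44 with the letters of a glucocorticoid response element (GNACA and TGTNC parted by 3 bases, both strands, found in 0.537% of all genes with a promoter) before a start; Map7d2 held them after the start. The window is chr14:8309865-8309917 (minus strand), with the motif from -120, in capitals. It belongs to a RefSeq start inside the gene (chr14:8296274-8318023), downstream of the annotated 5′ end, and lies from -118 of another RefSeq start. The third RefSeq promoter of Fam107a, nearest that 5′ end, did not hold these letters.
Fam107a: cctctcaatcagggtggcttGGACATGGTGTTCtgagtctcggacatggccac

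The other genes of the glucocorticoid list were mostly higher in MEFD3plu than in MEFD3min. None passed the rule, and some, such as Angptl4 and Gadd45g, had their highest mean in another group. Of the 28 other tested genes, 24 were called higher and 3 lower in MEFD3plu/MEFD3min, with a median log2 fold change of 2.12 against 0.00 over all genes tested. In MEFD5plu/MEFD5min 18 were higher and 1 lower, with a median of 0.81. The shares of all genes tested were 28.0% in each direction at day 3, and 26.3% higher and 24.2% lower at day 5. Angptl4 and Pdk4 are counted in the PPARγ list below as well. Tsc22d3, the glucocorticoid-induced leucine zipper gene, was 2.83 higher at day 3 (SE 0.104) and 1.59 higher at day 5 (SE 0.101), and Per1, a clock gene, 2.24 higher at day 3 (SE 0.195) and 0.40 at day 5 (SE 0.190, adjusted p = 0.0928, not called).

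None of the tested genes of 3 other lists fell among the members. With 61 members among 15997 genes tested, lists of this size could easily hold none. The rule also bars genes that stay above 25% of their MEFD3plu level in MEFD5plu, as Fabp4, Lpl and Adipoq did. Their absence therefore says little about these pathways. Over all genes tested, 28.0% were called in each direction at day 3, and 26.3% were higher and 24.2% lower at day 5. Of 33 cyclic AMP response genes, 19 were higher and 7 lower in MEFD3plu/MEFD3min, and 13 and 13 in MEFD5plu/MEFD5min. Of 28 PPARγ targets and adipocyte genes, 26 were higher and 1 lower at day 3 and 27 higher at day 5, and Adipoq, the fat cell hormone adiponectin, had a mean of 316 CPM in MEFD3plu and of 798 CPM in MEFD5plu. Of 42 secreted growth factors and cytokines, 12 were higher and 19 lower at day 3, and 13 and 19 at day 5. The search also found no full CREB site (TGACGTCA, both strands, 2.03% of all genes with a promoter) and no PPARγ repeat (AGGTCA repeated after 1 base, both strands, 0.0481%) in the 44 member promoters, which says only that these letters are not in these windows. The CREB half-site TGACG, searched on both strands and contained in the full site, was in the promoters of 8 of the 44 members. It was in 23.0% of all genes with a promoter and in 34.4% of the tested genes with one, and no share over the set was compared.

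The other transcriptional regulators were Nfia, Bcl6, a repressor, Vdr, the vitamin D receptor, and Tcf23, a basic helix-loop-helix factor. Nfia was at 102, 105 and 100.2 CPM in MEFD3plu and at 28.6, 22.8 and 24.9 CPM in MEFD5plu, leaving 24.9% ± 1.69 (SE), near the highest share that the rule allows. All 4 were called higher in MEFD5plu than in MEFD5min (26.3% of all genes tested). Vdr, named after its values were seen, was the only member called lower in MEFD5plu than in MEFD0 (29.8% of all genes tested). It was at 15.7, 17.4 and 14.4 CPM in MEFD3plu, at 2.40, 1.87 and 2.19 CPM in MEFD5plu, at 0.640, 1.41 and 0.723 CPM in MEFD5min and at 3.50, 4.02 and 4.07 CPM in MEFD0. MEFD5plu thus lay between both references without overlap, 1.44 above MEFD5min (SE 0.256, adjusted p = 0.000182) and with a log2 fold change of -0.66 against MEFD0 (SE 0.216, adjusted p = 0.0127). The call against MEFD0 was lost without MEFD5plu replicate 3 (-0.58, adjusted p = 0.0541).

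The Wnt pathway was represented by Frzb, a secreted antagonist that binds Wnt proteins, the receptor Fzd4, the co-receptor Lrp4, and Porcn, the acyltransferase that Wnt proteins need for secretion. Frzb stood at 129, 124 and 112 CPM in MEFD3plu, at 17.6, 16.0 and 19.1 CPM in MEFD5plu and at 11.8, 13.1 and 10.4 CPM in MEFD5min. Its day 5 groups did not overlap, with MEFD5plu higher by 0.75 (SE 0.0934, adjusted p = 4.81e-06). Fzd4 and Lrp4 were also higher in MEFD5plu, by 1.92 (SE 0.190) and 0.89 (SE 0.211). Porcn was at 3.39, 3.42 and 4.21 CPM in MEFD5plu and at 4.92, 4.87 and 3.64 CPM in MEFD5min, which overlap, and its difference of -0.11 was not called (SE 0.178, adjusted p = 0.624). The 4 kept 14.5% to 19.6% of their peak.

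Among ligands, receptors and their partners, Jag1, a ligand of Notch, kept no difference at day 5 that could be told from the spread. It was at 19.8, 19.3 and 15.5 CPM in MEFD3plu, at 4.04, 3.36 and 2.33 CPM in MEFD5plu and at 4.19, 3.66 and 3.92 CPM in MEFD5min, a log2 fold change of -0.12 (SE 0.274, adjusted p = 0.749) that turned to 0.07 without MEFD5plu replicate 4. The other 6 were called higher in MEFD5plu than in MEFD5min (26.3% of all genes tested). Irs4, an adaptor of insulin and growth factor receptors, had no count in any untreated sample and was at 7.13, 5.75 and 5.95 CPM in MEFD3plu. It was at 0.254, 0.268 and 0.309 CPM in MEFD5plu, 4.41% ± 0.400 (SE) of the peak. Retnla, a secreted resistin-like protein, was at 23.8, 19.8 and 29.3 CPM in MEFD3plu and at 3.05, 1.87 and 2.78 CPM in MEFD5plu, at least 26.1-fold higher than the floor of MEFD5min, where it had no count.

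Ramp2, a partner of the calcitonin-like receptor, peaked at 21.03 CPM and kept 13.9%, with 33.4% of its exon bases on the same strand as Vps25. Fgf14, an intracellular member of the fibroblast growth factor family, and Ostn, the secreted peptide osteocrin, peaked at 5.60 and 7.94 CPM and were called higher in MEFD5plu by 3.24 (SE 0.488) and 1.06 (SE 0.419). The call of Ostn held without MEFD5plu replicate 1 but with none of the other 5 day 5 samples left out (0.93 to 1.10, adjusted p from 0.0818 to 0.132).

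Scara5, a scavenger receptor that takes up ferritin, peaked sharply. It was at 99.6, 101 and 95.7 CPM in MEFD3plu, at most 0.499 CPM in any untreated sample, and at 4.26, 4.91 and 3.54 CPM in MEFD5plu. It kept 4.28% ± 0.407 (SE), which was at least 43.0-fold higher than the floor of MEFD5min. The lectin receptors Clec4d and Clec4e, known from myeloid cells and 6523 bases apart on chromosome 6, peaked at 8.69 and 6.59 CPM. Clec4e was at 6.10, 5.53 and 8.13 CPM in MEFD3plu, at 0.536, 1.25 and 0.421 CPM in MEFD5plu and without a count in MEFD5min, so that MEFD5plu was at least 7.47-fold higher than that floor. Peli2, a ubiquitin ligase of innate immune signalling, peaked at 71.7 CPM and kept 16.3%.

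Markers of macrophages did not move with these genes. The 10 markers summed to between 7.51 and 9.41 CPM in MEFD3plu, against 12.05 to 14.1 CPM in MEFD0, 14.5 to 16.6 CPM in MEFD3min, 20.1 to 21.1 CPM in MEFD5min and 13.5 to 15.3 CPM in MEFD5plu. In MEFD3plu 6 of the 10 (Adgre1, Aif1, Csf1r, Fcgr1, Itgam and Ptprc) were at or under 3 counts in each sample.

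Retnla and Clec4e are 2 of the 4 members with TATA letters, and their windows are shown beside that of Agt for this reason, with the letters in capitals. They are chr16:48842559-48842604 (plus strand, motif from -30) and chr6:123289875-123289920 (minus strand, motif from -29).
Retnla: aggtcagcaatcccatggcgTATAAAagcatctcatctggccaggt
Clec4e: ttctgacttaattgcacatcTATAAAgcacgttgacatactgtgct

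A further 5 members are best known from neurons. They were the ephrin receptor Epha7, the adhesion molecule Ncam2, Robo2, a receptor for Slit guidance cues, Neto1, an auxiliary subunit of glutamate receptors, and Snap25, a SNARE protein of vesicle release. Ncam2 was at 30.1, 28.3 and 31.2 CPM in MEFD3plu, at 3.05, 1.78 and 3.01 CPM in MEFD3min, at 2.32, 2.38 and 1.85 CPM in MEFD5plu and at 0.291, 0.375 and 0.167 CPM in MEFD5min. It kept 7.31% ± 0.594 (SE), and the day 5 groups did not overlap, with MEFD5plu 3.18 higher (SE 0.299, adjusted p = 1.97e-07). Snap25 was at 5.34, 6.38 and 5.12 CPM in MEFD3plu and at 0.423, 0.387 and 0.112 CPM in MEFD5plu, which overlapped with 0.0291, 0.166 and 0.0278 CPM in MEFD5min although the difference of 2.34 was called (SE 0.649, adjusted p = 0.00644).

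Robo2 kept 5.89% and was not called at day 5 against MEFD5min (0.51, SE 0.335, adjusted p = 0.226). The call of Neto1 (0.90, SE 0.360, adjusted p = 0.0457) was lost without MEFD5min replicate 1 (0.84, adjusted p = 0.117), MEFD5min replicate 3 (0.61, adjusted p = 0.168) or MEFD5plu replicate 1 (0.44, adjusted p = 0.340). The 8 neural markers, Snap25 included, summed to between 10.2 and 11.6 CPM in MEFD3plu, the lowest of the 5 groups. They summed to between 139 and 171 CPM in MEFD5min, with Sox10 and Stmn2 at or under 3 counts in every sample. Most of the MEFD5min sum was Gap43, with means of 148 CPM there and 3.77 CPM in MEFD3plu. Of the 5 tested markers besides Snap25, 4 were called lower in MEFD3plu/MEFD3min and 1 higher (28.0% of all genes tested in each direction). The higher one was Dcx, at 0.759 CPM in MEFD3plu.

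The transporters and ion regulators were Slc25a42, the mitochondrial carrier of coenzyme A, Slc25a29, a mitochondrial carrier of basic amino acids, Slc43a2, a carrier of large neutral amino acids, Wnk4, a kinase that governs ion cotransporters, and Atp2a3, a calcium pump of the endoplasmic reticulum. Their peaks lay between 8.22 and 55.8 CPM, and they kept 10.8% to 21.1%. All 5 were called higher in MEFD5plu than in MEFD5min (26.3% of all genes tested). The call of Slc25a29 was lost without MEFD5min replicate 4 (0.50, adjusted p = 0.126) or MEFD5plu replicate 1 (0.55, adjusted p = 0.0920). Atp2a3 had no count in MEFD3min or MEFD5min. It was at 8.20, 9.43 and 7.03 CPM in MEFD3plu and at 1.75, 1.37 and 1.85 CPM in MEFD5plu, at least 16.8-fold higher than the floor of MEFD5min.

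The 3 lipid enzymes were Pld1, a phospholipase D, Fa2h, the fatty acid hydroxylase of sphingolipid synthesis, and Liph, a phospholipase that releases lysophosphatidic acid. Pld1 was at 93.5, 87.7 and 76.6 CPM in MEFD3plu and at 24.4, 18.6 and 20.3 CPM in MEFD5plu, against 15.8, 14.2 and 11.8 CPM in MEFD5min. Fa2h was at 5.27, 7.04 and 4.51 CPM in MEFD3plu and at 0.790, 0.387 and 0.562 CPM in MEFD5plu, at least 5.88-fold higher than the floor of MEFD5min. In both genes the day 5 groups did not overlap. All 3 enzymes were called higher in MEFD5plu than in MEFD5min (26.3% of all genes tested), Pld1 by 0.76 (SE 0.144, adjusted p = 0.000298).

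Among the genes of cytoskeleton, junctions and trafficking, Ssh2, a phosphatase that activates cofilin, was at 236, 244 and 209 CPM in MEFD3plu, 55.9, 50.3 and 55.0 CPM in MEFD5plu and 19.5, 19.1 and 18.3 CPM in MEFD5min. Crybg3, a crystallin-domain protein, was at 150.1, 150.6 and 137 CPM in MEFD3plu, 34.3, 32.8 and 30.8 CPM in MEFD5plu and 23.7, 25.2 and 24.5 CPM in MEFD5min, but also at 37.7, 34.8 and 31.1 CPM in MEFD0. Both were higher in MEFD5plu than in MEFD5min without overlap, Ssh2 by 1.66 (SE 0.108, adjusted p = 1.92e-09) and Crybg3 by 0.58 (SE 0.101, adjusted p = 0.000152), while Crybg3 against MEFD0 was not called (0.10, SE 0.0998, adjusted p = 0.379).

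Map7d2, a microtubule-associated protein, had no count in MEFD3min and was at 82.2, 75.4 and 73.4 CPM in MEFD3plu. It kept 4.83, 7.32 and 6.40 CPM in MEFD5plu, at least 62.8-fold higher than the floor of MEFD5min. Coro6, an actin-binding coronin, was at 9.13, 12.8 and 7.94 CPM in MEFD3plu and at 2.32, 1.93 and 2.98 CPM in MEFD5plu, against 0.145, 0.416 and 0.306 CPM in MEFD5min. Its treated day 5 samples lay above every untreated one, by 3.26 against MEFD5min (SE 0.386, adjusted p = 2.74e-06). Ppl, the junction protein periplakin, and Mreg, melanoregulin, peaked at 8.71 and 5.03 CPM.

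Ctla2a, an inhibitor of cathepsin-like proteases, was the most abundant member. It stood at 1517, 1494 and 1910.3 CPM in MEFD3plu and at 379.7, 352 and 392 CPM in MEFD5plu, against 145, 102 and 169.6 CPM in MEFD5min, 38.8, 37.3 and 45.5 CPM in MEFD3min and 9.62, 9.99 and 12.6 CPM in MEFD0. Untreated cells gained it from each day to the next without overlap, and at day 5 treated cells were 1.59 higher (SE 0.173, adjusted p = 1.02e-06). As 25.8% of its 50-base stretches occur in other genes, mainly Gm49391, its count is uncertain. Over the whole set, 5 members had over 10% of such stretches in other genes, and 3 had over 10% of exon bases antisense to another gene. Counts of these members are uncertain in the same way. The deubiquitinase gene Usp2, Rassf2 and Rhbdl3 peaked between 6.23 and 24.0 CPM and kept 12.9% to 23.0%.

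The remaining 4 members have no role given here, among them 2010106E10Rik. That gene was at 22.5, 22.3 and 28.8 CPM in MEFD3plu and at 1.44, 2.26 and 2.44 CPM in MEFD5plu. It had no count in MEFD3min or MEFD5min and was at least 20.8-fold higher in MEFD5plu than the floor of MEFD5min. Levels of different genes are comparable only per length, and by mean CPM per kilobase of exon in MEFD3plu the order was Ctla2a (778), Agt (419.9), Saa3 (58.3), Retnla (40.6), Fkbp5 (40.1), Frzb (37.6), Sned1 (36.4) and Prg4 (34.9).

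The level left 2 days after withdrawal differed widely among the 61 members, within the limit of 25% that the rule sets. The median was 18.4% of the MEFD3plu mean, and the range 1.72% to 24.9%. Under 5% was left for 4 members (Fam107a, Scara5, Irs4 and Fga), 5% to 10% for 6 members, Prg4 among them, 10% to 15% for 14, 15% to 20% for 16 and 20% to 25% for 21. Shares of this size are a description, since the ratio of MEFD3plu to MEFD5plu was part of the rule.

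**Figure D3:**
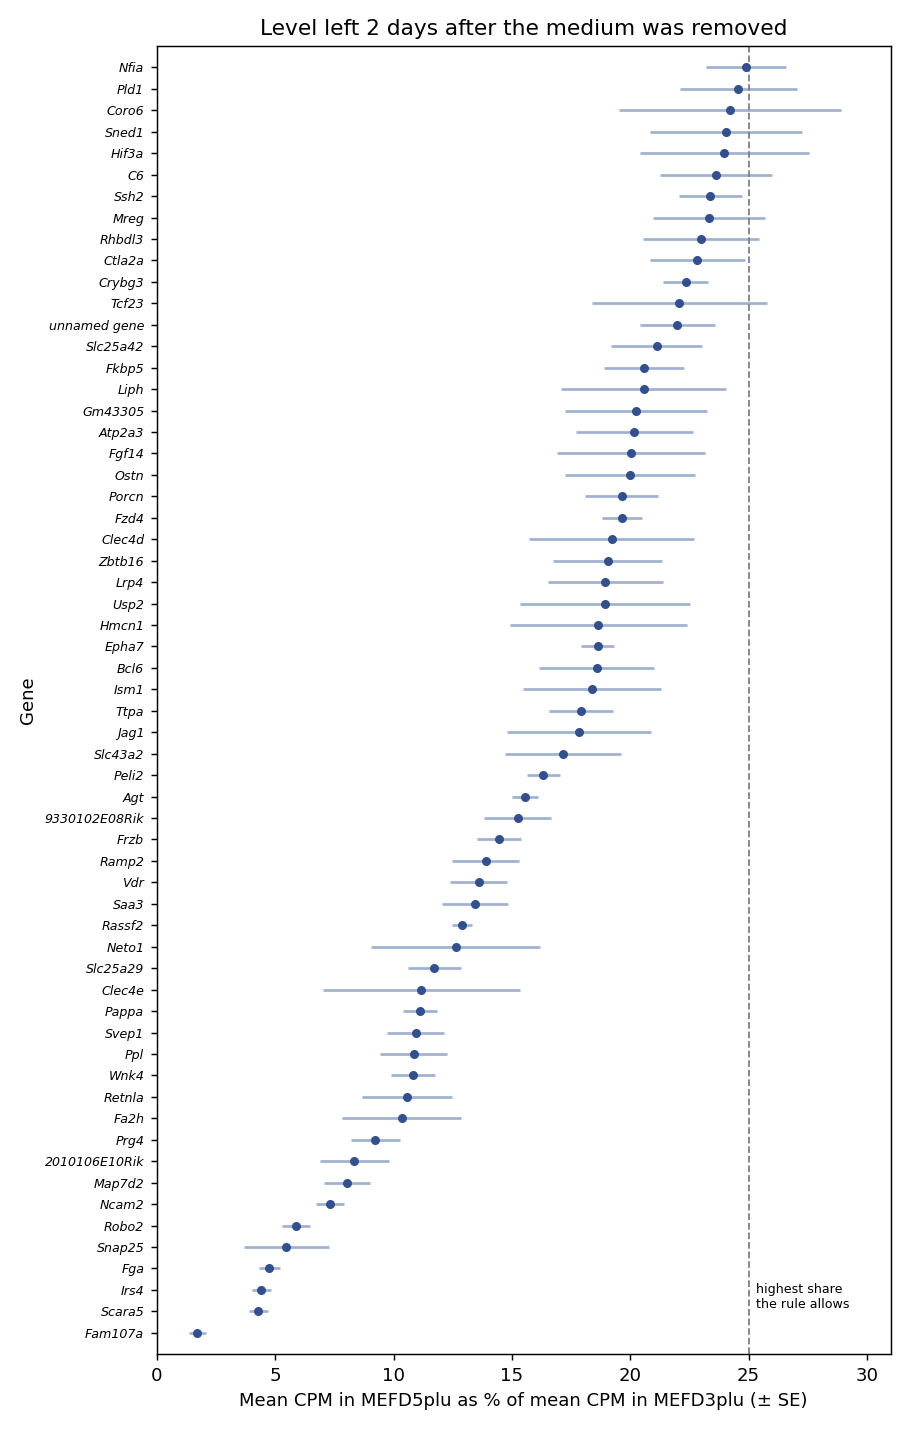
Mean CPM in MEFD5plu as a percentage of the mean in MEFD3plu for 60 of the 61 members, with the SE from the 3 samples of both groups as horizontal bars and the limit of 25% as a dashed line. Fam107a lies lowest at 1.72% and Nfia highest at 24.9%, and 20 of those drawn lie between 20% and 25%.

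Whether the level left at day 5 was above that of untreated cells of the same age was tested, as the rule holds MEFD5plu and MEFD5min under the same limit and does not compare them. Of the 61 members 54 were called higher in MEFD5plu than in MEFD5min, where 26.3% of all 15997 genes tested were called higher, and 1, Prg4, was lower, where 24.2% were lower. With 1 sample of these groups left out, 50 to 52 were called higher. The 6 members not called were Porcn, Jag1, Robo2, Usp2, Mreg and 9330102E08Rik. By CPM, all MEFD5plu samples lay above all MEFD5min samples in 53 members, against 24.0% of all genes. In 1 (Prg4) all lay below, against 39.1%. All 61 had passed the filter on low counts, which their level in MEFD3plu, set by the rule, ensures whatever their day 5 counts. The share of all genes tested is therefore not a matched background for members low at day 5. The median log2 fold change was 1.63 over the members and 0.01 over all genes tested.

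For 15 of the 61 MEFD5min was at or under 3 counts in every sample, so that a fold is only a lower bound. These bounds ran from 2.81-fold (Irs4) to 62.8-fold (Map7d2), and with the 15 at their bound the median over the members was 1.60 on the log2 scale. Among the other members, the largest difference was that of Agt. When only the total counts scaled the libraries, the median of all genes fell by 0.16 on the log2 scale and 48 members were called higher.

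**Figure D4:**
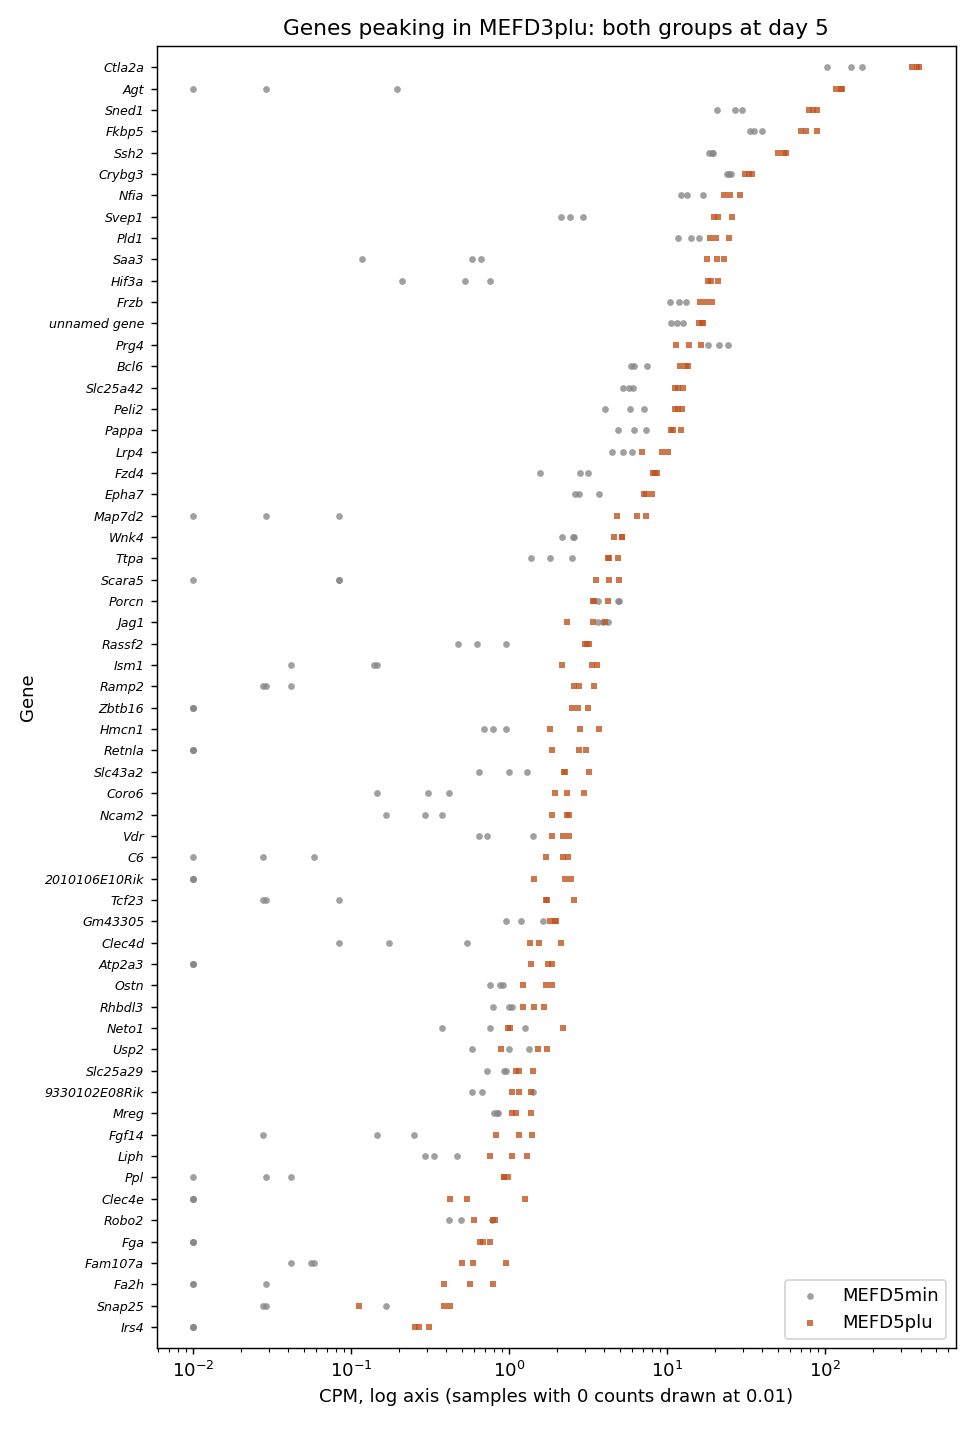
CPM at day 5 on a log axis for 60 of the 61 members, with circles for the 3 MEFD5min samples and squares for the 3 MEFD5plu samples; samples with 0 counts are drawn at 0.01. Squares lie to the right of all circles in 52 rows, and to the left of them in the row of Prg4.

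The return to the level before treatment was tested against MEFD0. Here 52 members were called higher in MEFD5plu (35.2% of all genes tested), 1 lower, Vdr (29.8% of all), and 8 were not called. Both day 5 comparisons share the MEFD5plu samples. By their own calls 48 members were higher in each. The 5 higher than MEFD5min but not called against MEFD0 were Crybg3, Rassf2, Slc25a29, Snap25 and the unnamed gene ENSMUSG00000091562. Jag1, Porcn and Robo2 were higher than MEFD0 but not called against MEFD5min. Usp2, Mreg and 9330102E08Rik were called in neither.

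Members also changed in untreated culture, at levels that the rule holds to at most 25% of the peak. In MEFD3min 29 (47.5%) were called higher than in MEFD0 (31.4% of all genes tested). Lower were 15 (24.6%), where 28.6% of all genes tested were lower. Besides the 6 matrix genes, the higher ones included Ctla2a, Ncam2, Robo2 and Neto1. Among the lower ones were Fkbp5 (log2 fold change -1.08, SE 0.103), Agt (-2.51, SE 0.483), Vdr (-1.29, SE 0.227) and Crybg3 (-1.04, SE 0.103). In 8 members both groups were at or under 3 counts in every sample. Such members passed the filter on low counts through their MEFD3plu level, so the share of all genes tested is not a matched background.

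From day 3 to day 5 in growth medium 10 members (16.4%) rose (21.3% of all genes tested). A further 21 (34.4%) fell (21.5% of all), and 10 were at or under 3 counts in both groups. For the same reason the shares are not matched here either. Fkbp5 rose by 0.93 (SE 0.103), Jag1 by 1.87 (SE 0.314) and Ctla2a by 1.67 (SE 0.175). Ncam2 (-3.37, SE 0.295), Svep1 (-1.91, SE 0.287), Pappa (-1.50, SE 0.181) and Sned1 (-1.57, SE 0.202) were lower in MEFD5min. This comparison and the one before share the MEFD3min samples. Summed levels of 10 proliferation markers moved as well, from between 2990.0 and 3110 CPM in MEFD0 to between 550.5 and 655 CPM in MEFD3min and between 2193 and 2225 CPM in MEFD5min. They were at 594 to 619 CPM in MEFD3plu and at 1391 to 1421 CPM in MEFD5plu, and their part in the results was not tested.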

How the data were processed

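The authors aligned RNA-seq reads of 15 samples to GRCm38 and deposited raw counts per Ensembl gene for each sample, without normalization. The submitters' processing notes name TopHat2 2.1.0, HTSeq and DESeq2. The labels name a TruSeq RNA kit that does not mark strand and the study's methods a stranded mRNA kit, and the strand setting of the counting is not given in the sources used here, so reads of a gene and its antisense partner cannot be told apart. Names were taken from GENCODE M21, where 46091 identifiers matched and 512 did not. CPM used all gene counts of a sample. A gene at or under 3 counts in every sample of a group was at the floor, and bounds and floors cover counting error only.

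With edgeR 4.0.16 in R 4.3.3, genes were filtered by filterByExpr on the 5 groups, libraries scaled by TMM, and glmQLFit and glmQLFTest run in 1 fit over all 15 samples with no covariates. P-values were adjusted by Benjamini-Hochberg over the 15997 genes tested and called under 0.05. The code was tested on simulated data. SEs of log2 fold changes were derived from that fit, as the absolute log2 fold change divided by the square root of its F statistic. They are rough where a group is near 0 counts. Alternatives were DESeq2 1.42.0, its size factors, total counts alone, no filter, only the groups compared, a replicate block, stricter thresholds and each sample left out.

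Values per sample are given for Prg4, the 10 members highest in MEFD3plu, the 10 with the largest peak ratio, the 6 with the largest share left, the 6 with the largest day 5 difference without overlap in each direction, and the members of a pathway list. Per-sample values of Vdr, Jag1 and Porcn were added after their tests were seen, and other members were described by role. The values of 1 member are not reported here. The members and lists were chosen with earlier results of these data known. Replicate numbers met the criterion for pairing (every correlation of same-numbered deviations over 0.1) only in MEFD3plu/MEFD3min, where they were 0.143, 0.228 and 0.360.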

Additional observations from a re-analysis of the deposited data

Results flagged for a closer look

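Prg4 went opposite ways against untreated cells on the 2 days. All 3 MEFD3plu samples lay above all 3 MEFD3min samples, a direction that the choice of members sets. By CPM, all 3 MEFD5plu samples lay below all 3 MEFD5min samples (log2 fold change -0.46). That order does not hold for every sample under TMM scaling. The difference between the days was not tested.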

How the results depend on the processing

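The number of members was 120 with a ratio of at least 3, 25 with at least 6, and 54 to 65 with 1 sample left out. With CPM scaled by TMM it was 58, of which 55 were among the 61. Of the called counts, the 1 member lower in MEFD5plu than in MEFD5min became 0 at an adjusted p under 0.01 and 0 with a change of at least 2-fold, and was 0 to 1 with a sample left out. The 1 member lower than MEFD0 became 0 and 0 under the same thresholds, and 0 to 1 with a sample left out. The 21 lower in MEFD5min than in MEFD3min became 12 with only the 2 groups compared, 13 at an adjusted p under 0.01 and 12 with at least 2-fold. These thresholds are stricter by construction. For the pathway lists, counts added after seeing the data, the PPARγ list had 1 lower gene at day 5 with total counts alone, 1 with no filter and 1 with the replicate block, and 0 to 1 with a sample left out. The matrix list had 3 to 5 higher genes at day 3 and 2 to 5 lower genes at day 5 with a sample left out. Jag1 lay between -0.30 and 0.0704 at day 5 with a sample left out, and the cause of its change of sign was not tested. At day 5, calls of Neto1, Slc25a29, Gm43305, Ostn and Rhbdl3 were lost under at least 1 alternative, and 9330102E08Rik was called without MEFD5min replicate 3 (1.07, adjusted p = 0.0324). For the comparisons tested over the members the criterion for pairing was not met, which does not show that pairing was absent. Same-numbered correlations were 0.042, -0.0045 and 0.054 in MEFD5plu/MEFD5min and 0.084, 0.132 and 0.180 in MEFD3min/MEFD0. With the replicate block 54 members were higher and 1 lower in MEFD5plu/MEFD5min. Genes at a few counts per library limit the precision.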
